A study of Mus musculus with 17 samples.

Results

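The proteasome genes described here are the 50 protein-coding genes whose symbol is Psm followed by a letter from a to g and a number. They were taken by name from a table of 45777 genes, of which 21949 are protein-coding. Messenger RNA was sequenced from gastrocnemius, the large calf muscle, of 17 individually housed male C57BL/6J mice, which lets the proteasome be compared between younger and older muscle and between older muscle with and without dietary allulose. Allulose is a low-calorie sugar that differs from fructose at a single carbon. The Mature group (n = 7) arrived at 8 weeks of age. The Middle-aged group (n = 6) and the ALL group (n = 4) arrived at 12 months of age by the labels. The paper states a slightly younger age for these mice. Every mouse was fed the AIN-93 semi-purified diet, which in the ALL group alone held 3% D-allulose, and the diets ran for 12 weeks.

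The proteasome is the large protease that degrades proteins tagged with ubiquitin. Its barrel, the 20S core, is built of rings of alpha subunits (Psma) and beta subunits (Psmb), and cutting is done by Psmb5, Psmb6 and Psmb7. The 19S cap unfolds the substrate with a ring of ATPases (Psmc) and recognises and strips ubiquitin with the other base and lid subunits (Psmd), while Psme activators can take the place of the cap and Psmg factors help assemble the core. Interferon and immune cells are known to bring in Psmb8, Psmb9 and Psmb10, which replace the constitutive cutting subunits and form the immunoproteasome. In skeletal muscle the ubiquitin-proteasome system is known for its part in the breakdown of contractile proteins during wasting.

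The libraries held 49774656 to 72640511 counts, and mitochondrially encoded genes took 15.2% to 23.5% of them. Mature replicates 1, 2 and 3, Middle-aged replicates 1, 3 and 4 and ALL replicate 1 stood apart with mitochondrial shares above 19%. The RNA protocol in the labels names adipose tissue and liver, whereas the tissue label is gastrocnemius. The 6 fibre markers, among them Ckm and Acta1, had a sum of 104010 to 138514 CPM (read counts scaled to library size) per mouse. The 4 adipocyte markers summed to 2.74 to 75.2 CPM and the 4 liver markers to 0 to 0.471 CPM, so fibre markers far exceeded those of both tissues in the protocol. Relative to Mature, 7 of 10 endothelial markers and 2 of 4 fibroblast markers were lower in Middle-aged (edgeR, FDR under 0.05), where 10.3% of all genes passed in either direction. In ALL relative to Mature, 6 of 10 endothelial, 2 of 4 fibroblast and 1 of 4 adipocyte markers were lower, where 6.5% of all genes passed. In ALL against Middle-aged 0 markers of these types passed by edgeR or DESeq2, but all 4 adipocyte markers had an unadjusted p under 0.05, with a median log2 fold change of −2.10. The summed endothelial level ranged over 281 to 372 CPM in Mature mice, 203 to 257 CPM in Middle-aged mice and 233 to 248 CPM in ALL mice. Whether these differences in other cell types bear on any proteasome gene was not tested. In bulk muscle, fewer cells of a type and less RNA per cell cannot be told apart.

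Levels of different genes are compared here in TPM, the authors' unit, which scales reads to transcript length and library size. The 31 core subunits, meaning the alpha ring, the beta ring with its constitutive cutting subunits, and the base and lid of the cap, formed the abundant class. Their group medians ran from 64.4 TPM for Psmd13 to 351 TPM for Psmb7 in Mature, from 59.0 TPM for Psmd14 to 347 TPM for Psmb7 in Middle-aged, and from 55.9 TPM for Psmd14 to 350 TPM for Psmb7 in ALL. Psmb7, which cuts after basic residues, and the lid subunit Psmd8 were the most abundant in each group, and in Mature the next was Psma6 at 195 TPM. Psmd8 had medians of 317, 329 and 324 TPM in Mature, Middle-aged and ALL. Subunits of the same particle thus had transcript levels several-fold apart, as the plot of levels by role shows. The alpha ring ran from 89.1 TPM for Psma5 to 195 TPM for Psma6 in Mature, and the ATPases from 86.4 TPM for Psmc4 to 168 TPM for Psmc3. The summed level of the 31 core subunits was 3988 to 5173 TPM in Mature, 4022 to 5166 TPM in Middle-aged and 4139 to 4676 TPM in ALL, so the range of ALL lay inside both others.

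Most regulators and all 7 assembly factors with a Psm symbol had lower medians than every core subunit, with the activator Psme4 as the exception. The nuclear activator Psme3 had medians of 33.5, 34.9 and 33.5 TPM in Mature, Middle-aged and ALL, and Psme4, known as PA200, had 103, 96.5 and 96.1 TPM, within the range of the core subunits. The inhibitor Psmf1, known as PI31, had medians of 7.08, 6.41 and 6.73 TPM. The cap assembly chaperones Psmd5, Psmd9 and Psmd10 had medians between 7.15 and 13.2 TPM, and the core assembly chaperones Psmg1 to Psmg4 between 6.88 and 27.1 TPM. Psme2b, a close copy of Psme2 whose reads may be shared with it, had a median of at most 0.335 TPM. Psmc3ip, which carries a subunit's name but is known as a cofactor of meiotic recombination, had medians of 1.79 to 2.67 TPM. The thymus subunit Psmb11 had no count in any library, which allows up to 3 counts per library, and the testis subunit Psma8 had 0 to 8 counts. These 2 genes failed the filter on low counts, so 48 of the 50 genes were tested.

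**Figure D1:**
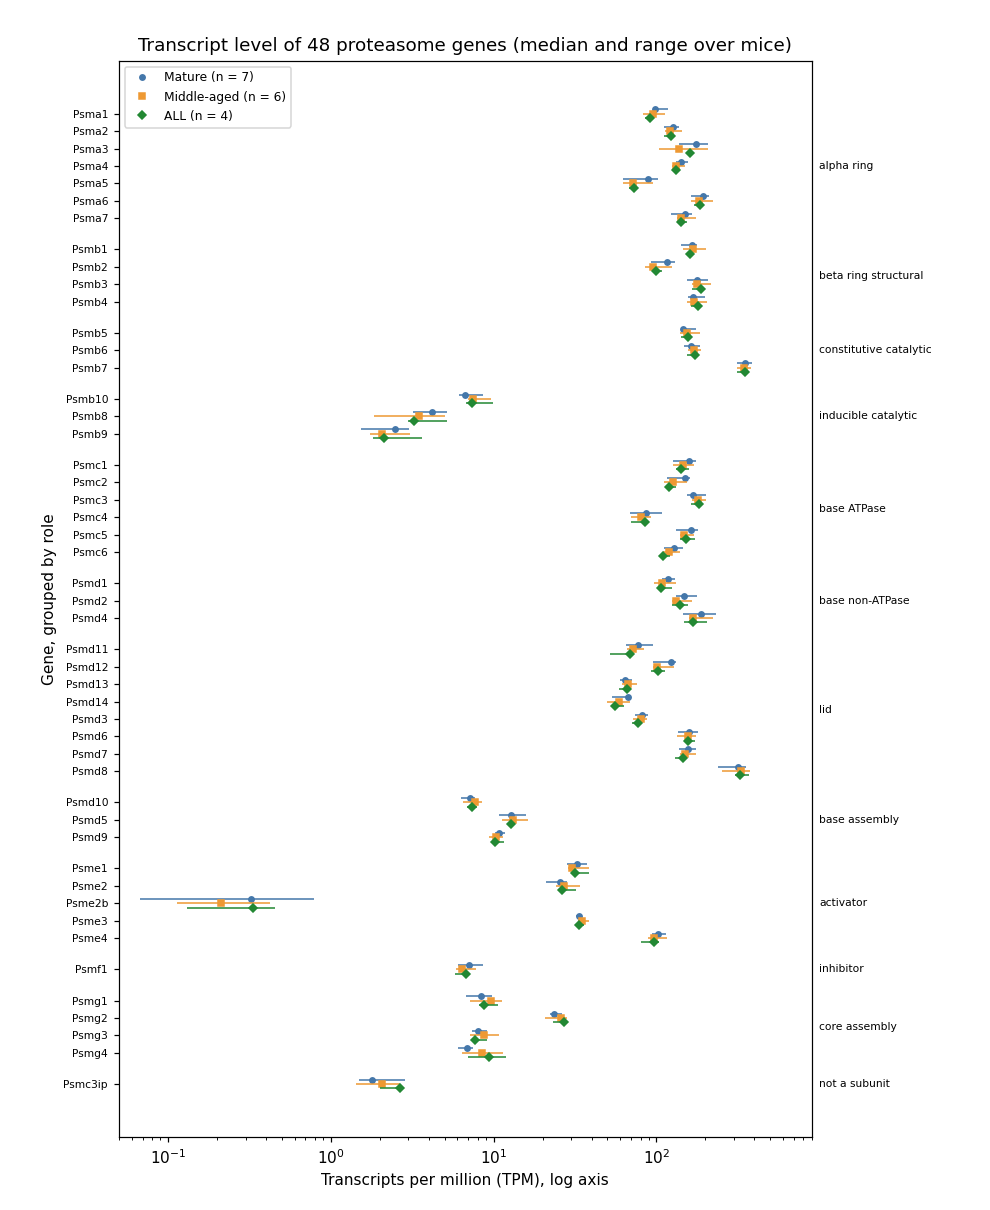
Transcript level of 48 proteasome genes in TPM on a log axis, grouped by role. Points are group medians and lines run from the lowest to the highest mouse. Core subunits lie near 100 TPM (55.9 to 351 TPM by group median), whereas the medians of Psmb8, Psmb9 and Psmb10 lie between 2.07 and 7.44 TPM.

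For Middle-aged against Mature, the comparison of age, none of the 48 genes passed the threshold in either direction (edgeR quasi-likelihood test with Benjamini-Hochberg adjustment over 16731 genes, FDR under 0.05), against 10.3% of all genes tested. Psme2 and Psmg4 had an unadjusted p under 0.05, and DESeq2 also called 0 members. Among the 1874 genes whose average level fell in the range of the core subunits, 9.87% passed. The median log2 fold change (logFC) of the 48 genes was −0.03, beside 0.01 over all genes tested, and 20 of 48 were above 0. By role, the median logFC was −0.08 for the 7 alpha subunits, 0.05 for the 4 structural beta subunits, −0.05 for the 6 ATPases, −0.07 for the 3 other base subunits, −0.04 for the 8 lid subunits and 0.16 for the 4 core assembly factors. All 31 core subunits had a 95% interval within 0.5 of no difference on the log2 scale, and 23 within 0.25. The bound farthest from 0 belonged to Psma5, with a logFC of −0.15 and an interval from −0.36 to 0.06. The median logFC of the core subunits was −0.05 over all libraries, −0.10 among libraries with a mitochondrial share below 19% and 0.06 among the others, with 0 members called in each set.

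For ALL against Middle-aged, the comparison of diet, none of the 48 genes passed in either direction, and 0.0% of all genes tested did. No member had an unadjusted p under 0.05, and DESeq2 called 0 members. The median logFC of the members was 0.01, beside −0.0047 over all genes tested, and 26 of 48 were above 0. All 31 core subunits again had intervals within 0.5 of no difference, and 25 within 0.25. The widest reach among them was that of the lid subunit Psmd11, at a logFC of −0.12 with an interval from −0.32 to 0.08. The highest logFC among members with an average logCPM above 0 was 0.33 ± 0.20 (SE) for Psmc3ip (FDR = 1.0), and the lowest was −0.13 ± 0.11 (SE) for Psmg3 (FDR = 1.0). Psmc3ip was 1.21, 1.53, 1.62 and 1.68 CPM in ALL replicates 1 to 4, against 0.785 to 1.44 CPM in Middle-aged (median 1.22), and the groups overlapped.

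For ALL against Mature, in which age and diet differ together, Psmg4 was higher and no other member passed in either direction, against 6.5% of all genes tested and 3.32% called higher. DESeq2 also called only Psmg4. Among genes in the level range of the core subunits, 6.35% passed, and none of the 31 core subunits did. Psmg2 also had an unadjusted p under 0.05. The median logFC of the members was −0.0030, beside −0.0073 over all genes tested, and 23 of 48 were above 0. The 3 comparisons share their groups, so they are not independent of each other. The lowest logFC was that of Psmd11, a lid subunit, at −0.19 ± 0.09 (SE, FDR = 0.245). Psmd11 was 115, 82.7, 101 and 114 CPM in the ALL mice and 98.7 to 135 CPM in Mature (median 118), and ALL replicate 2 alone lay below every Mature mouse. The highest logFC of a core subunit in this comparison was 0.21 for Psmd8 (FDR = 0.232), with an interval from −0.0053 to 0.43.

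**Figure D2:**
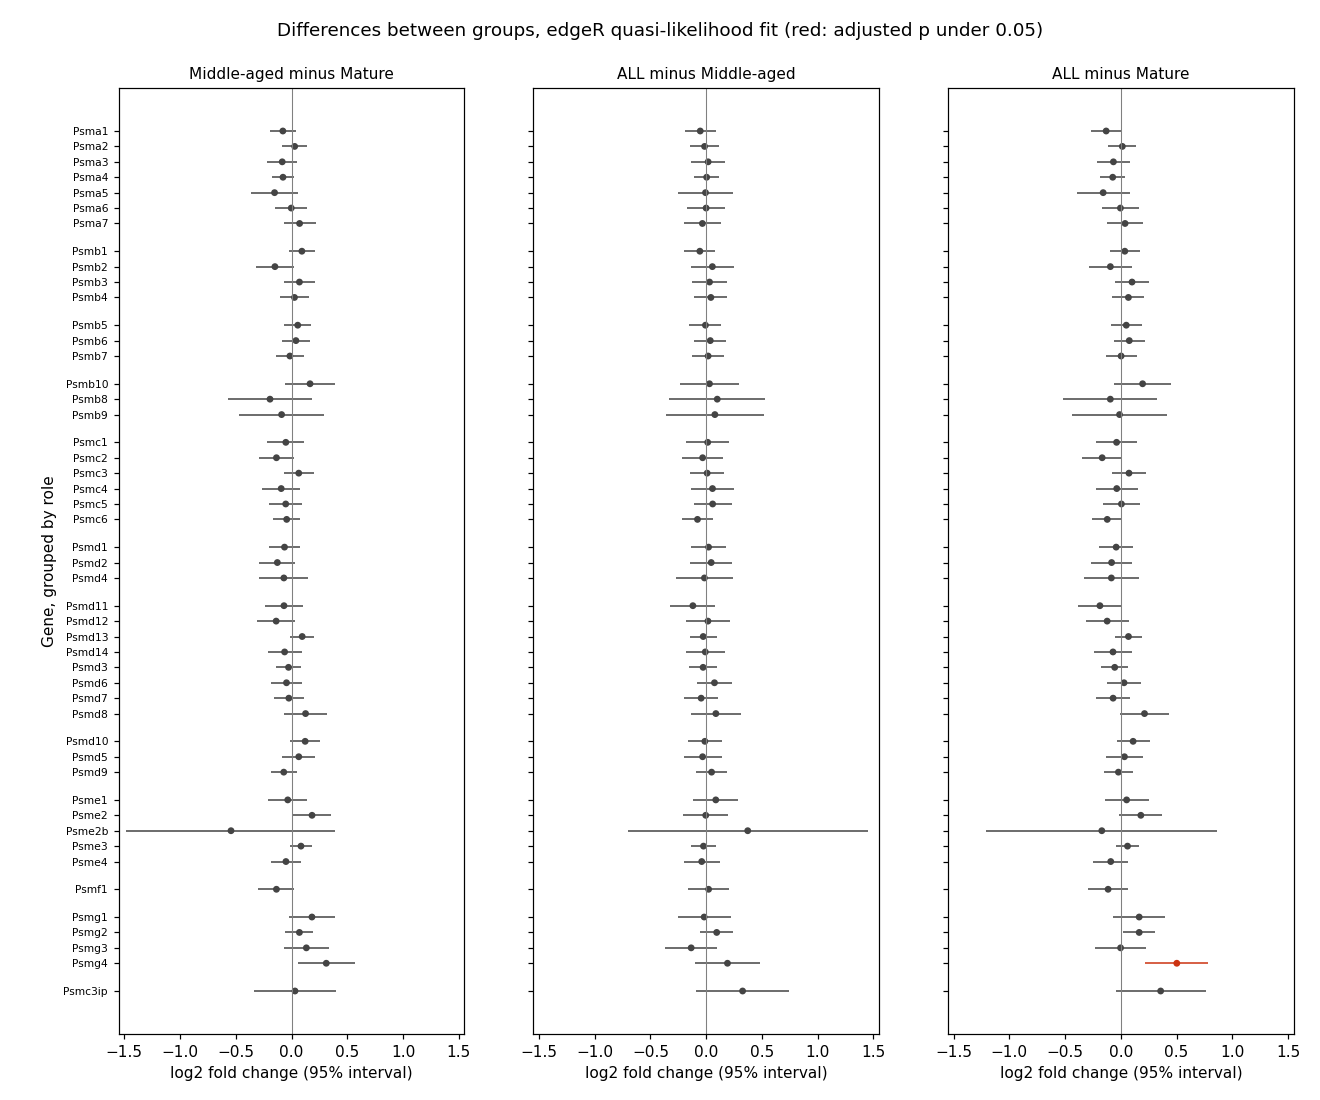
Log2 fold change with its 95% interval for the 48 genes tested, by role, in the 3 comparisons. Only Psmg4 in ALL minus Mature, drawn in red, had an adjusted p under 0.05, and the intervals of the 31 core subunits stayed within 0.5 of 0 in every panel.

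Psmg4 encodes the fourth of the core assembly chaperones, which is known to work as a pair with the product of Psmg3 when the alpha ring is laid down. It was 1.91 to 2.36 CPM in Mature (median 2.15), 2.24 to 3.35 CPM in Middle-aged (median 2.65), and 2.33, 3.84, 2.78 and 3.24 CPM in ALL replicates 1 to 4. ALL replicate 1 lay inside the Mature range and the other ALL mice lay above it. The logFC of ALL against Mature was 0.50 ± 0.14 (SE), a 1.42-fold difference with an interval from 0.22 to 0.79 and an FDR of 0.0319. Middle-aged stood between the groups, with a logFC against Mature of 0.31 ± 0.12 (SE, FDR = 0.114) and a logFC of ALL against Middle-aged of 0.19 ± 0.14 (SE, FDR = 1.0). These values rest on 107 to 271 counts per library. The FDR for ALL against Mature went past 0.05 without ALL replicate 2 (0.139), 3 (0.0604) or 4 (0.0945), without Mature replicate 4 (0.0576) or 6 (0.0546), and with no filter on low counts (0.0549), scaling by library size alone (0.0823) or the replicate number as a block (0.0511). Among libraries with a mitochondrial share of 19% or more, which include a single ALL mouse, the logFC was 0.04, and among the others it was 0.66 (FDR = 0.0425).

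The 3 other core assembly chaperones did not pass in any comparison. Psmg1 and Psmg2, which are known to form the other chaperone pair, had logFC values of 0.16 ± 0.11 (SE) and 0.16 ± 0.07 (SE) in ALL against Mature (FDR = 0.405 and 0.149). Psmg2 was 15.8, 18.4, 17.4 and 18.6 CPM in ALL and 14.5 to 17.1 CPM in Mature (median 15.8). Psmg3 had a logFC of −0.0023 ± 0.11 (SE) in the same comparison. It was 3.99, 4.69, 4.08 and 3.82 CPM in ALL and 3.65 to 4.60 CPM in Mature (median 4.11), so the partner of Psmg4 overlapped almost fully between the groups. Pomp, which completes core assembly and lies outside the naming rule, was among 11 further proteasome genes tested, of which 0 passed in any comparison by edgeR. Of these, 1, 0 and 2 had an unadjusted p under 0.05 for age, for diet and for both together, and DESeq2 called 1, Zfand5, in ALL against Mature, where edgeR gave a logFC of −0.46 ± 0.15 (SE, FDR = 0.0636).

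**Figure D3:**
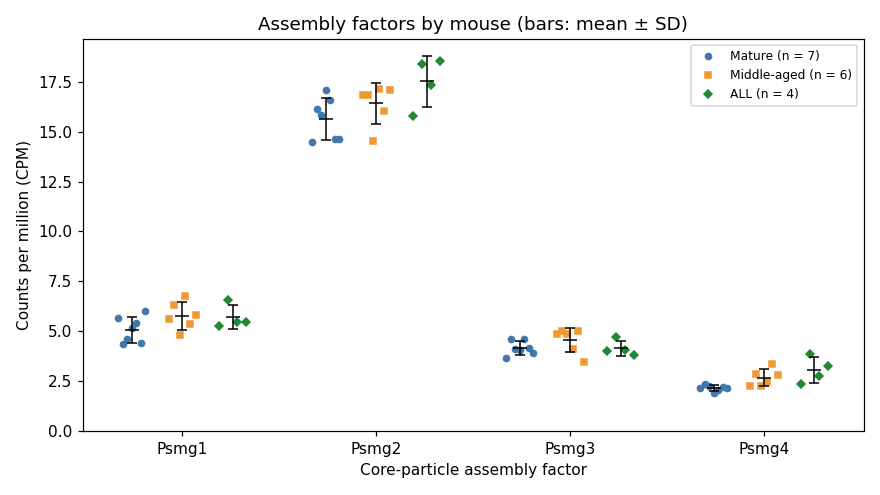
Level of the core assembly factors Psmg1 to Psmg4 in each mouse, in CPM, with bars for mean ± SD. For Psmg4 the Mature mice sit between 1.91 and 2.36 CPM and the ALL mice between 2.33 and 3.84 CPM.

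None of the constitutive cutting subunits passed in any comparison. Psmb5, the chymotrypsin-like subunit and the main target of proteasome inhibitors, was 69.5 to 88.6 CPM in Mature (median 75.8), 75.9 to 86.0 CPM in Middle-aged (median 80.1), and 75.9, 81.6, 80.6 and 83.3 CPM in ALL. Psmb6, the caspase-like subunit, was 87.7 to 113 CPM in Mature (median 99.8), 101 to 104 CPM in Middle-aged (median 103), and 98.3, 106, 107 and 110.2 CPM in ALL. Psmb7 was 169 to 217 CPM in Mature (median 191), 188 to 198 CPM in Middle-aged (median 193), and 182, 200.3, 197 and 202 CPM in ALL. In each of the 3 genes the Mature range contained every value of the other groups. Over the 3 comparisons their logFC ran from −0.01 to 0.08, and no interval went beyond −0.15 or 0.22.

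The inducible subunits were scarce. Psmb8 was 2.29 to 3.89 CPM in Mature (median 3.00), 1.45 to 3.28 CPM in Middle-aged (median 2.49), and 2.61, 3.77, 2.17 and 2.22 CPM in ALL. Psmb9 was 0.857 to 1.70 CPM in Mature (median 1.30), 0.965 to 1.60 CPM in Middle-aged (median 1.21), and 1.23, 1.93, 1.06 and 1.03 CPM in ALL. Psmb10 was 4.65 to 6.22 CPM in Mature (median 5.15), 4.86 to 7.06 CPM in Middle-aged (median 5.90), and 5.52, 7.47, 5.82 and 5.16 CPM in ALL. ALL replicate 2 had the highest level of its group in all 3 genes. The lowest logFC of any member with an average logCPM above 0 in Middle-aged against Mature was that of Psmb8, at −0.19 ± 0.18 (SE, FDR = 0.558). Among libraries with a mitochondrial share below 19% it was 0.19, so its direction was not stable. The intervals of Psmb8 were wide, from −0.57 to 0.18 for Middle-aged against Mature and from −0.33 to 0.53 for ALL against Middle-aged.

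Within a library, each inducible subunit can be set against the constitutive one it replaces. The count ratio of Psmb8 to Psmb5 had a median of 4.10% in Mature (2.67% to 5.11%), 3.19% in Middle-aged (1.85% to 3.81%) and 3.07% in ALL (2.67% to 4.62%). The ratio of Psmb9 to Psmb6 had medians of 1.40%, 1.18% and 1.12% in the same order. The ratio of Psmb10 to Psmb7 had medians of 2.55%, 3.12% and 2.99%. The ranges overlapped in all 3 pairs, and in TPM the medians of the ratios were between 1.23% and 2.91%. Transcripts of the inducible subunits were thus a few percent of those of their constitutive counterparts in every group.

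**Figure D4:**
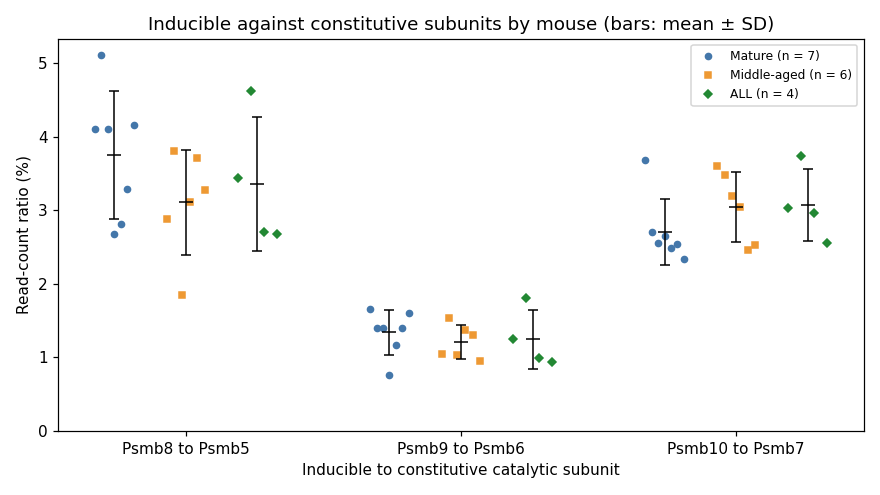
Read-count ratio of each inducible subunit to the constitutive subunit it replaces, in percent, for each mouse, with bars for mean ± SD. All ratios lie between 0.757% and 5.11%, and the groups overlap in each pair.

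The promoters of Psmb5, Psmb6, Psmb8 and Psmg4 are shown because these genes carry the contrast between constitutive and inducible subunits and the only gene called. The sequences are from RefSeq on GRCm38.p6, run 5′ to 3′ on the gene's own strand, and cover 100 bases before and 50 bases after the start. They lie at chr14:54617946-54618095 (minus strand) for Psmb5, chr11:70525257-70525406 (plus) for Psmb6, chr17:34198095-34198244 (plus) for Psmb8 and chr13:34162864-34163013 (plus) for Psmg4. Capitals mark TGACNNNGC, the core of the antioxidant response element that Nfe2l1 and Nfe2l2 are known to bind, in Psmb5 and Psmb6, and GAAANNGAA, the core of the interferon regulatory factor element, in Psmg4.
Psmb5: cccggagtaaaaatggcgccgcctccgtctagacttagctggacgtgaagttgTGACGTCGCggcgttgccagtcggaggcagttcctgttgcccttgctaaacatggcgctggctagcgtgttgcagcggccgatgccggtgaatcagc
Psmb6: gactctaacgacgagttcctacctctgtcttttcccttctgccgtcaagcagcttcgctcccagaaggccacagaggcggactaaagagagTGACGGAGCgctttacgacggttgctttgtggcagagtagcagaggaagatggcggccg
Psmb8: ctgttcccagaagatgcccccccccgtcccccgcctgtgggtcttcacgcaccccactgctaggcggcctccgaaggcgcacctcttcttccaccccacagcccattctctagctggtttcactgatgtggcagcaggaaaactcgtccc
Psmg4: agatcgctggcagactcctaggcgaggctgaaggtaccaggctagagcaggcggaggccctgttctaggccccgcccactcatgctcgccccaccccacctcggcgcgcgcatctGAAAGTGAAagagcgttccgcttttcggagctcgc
In Psmb5 the motif begins 47 bases before the start and in Psmb6 9 bases before it. For Psmb6 this is the start of the promoter entry used. The gene's own span begins upstream of that, at chr11:70525324, which places the motif inside the gene. In Psmg4 it begins at base 16 after the start, and the window of Psmb8 held neither motif.

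Over windows of 300 bases, 250 before the start and 50 after, 42 of the 50 members had a promoter in the RefSeq table. TGACNNNGC, searched on both strands, was in 6 of the 42 (14.3%) and in 13.99% of 27025 genes. GAAANNGAA was in 7 of the 42 (16.7%) and in 9.76% of all genes. CCAAT was in 15 of the 42 (35.7%) and in 41.1% of all, and GGGCGG, the GC box, was in 23 of the 42 (54.8%) and in 38.2% of all. A match is a description of the letters and not of binding. In these muscles the transcript of Nfe2l1, the factor known to raise proteasome genes when the proteasome is inhibited, was 607 to 739 CPM in Mature (median 699), 608 to 926 CPM in Middle-aged (median 785) and 705 to 851 CPM in ALL. None of the 6 tested genes of this stress response passed in any comparison by edgeR. In each comparison with Mature, 1 of them had an unadjusted p under 0.05. For Middle-aged it was Nfe2l1 itself, with a logFC of 0.20 ± 0.09 (SE, FDR = 0.145). For ALL it was Nfe2l2, with a logFC of −0.23 ± 0.10 (SE, FDR = 0.171). None of the 6 had one in ALL against Middle-aged. DESeq2 called 0 of them.

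The activators Psme1 and Psme2 together form the interferon-responsive PA28 cap. Psme1 was 15.2 to 20.8 CPM in Mature (median 18.6), 15.6 to 20.1 CPM in Middle-aged (median 18.8), and 18.7, 22.3, 18.7 and 17.5 CPM in ALL. Psme2 was 10.3 to 14.8 CPM in Mature (median 13.4), 12.7 to 16.2 CPM in Middle-aged (median 15.1), and 13.6, 17.05, 14.6 and 13.5 CPM in ALL. Psme2 had a logFC of 0.18 ± 0.08 (SE) for Middle-aged against Mature with an unadjusted p of 0.0388 and an FDR of 0.176, and the groups overlapped. Psme1 had a logFC of −0.03 ± 0.08 (SE, FDR = 0.850) in the same comparison. As with the inducible subunits, ALL replicate 2 was the highest ALL mouse for both.

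Of 12 genes of interferon signalling and antigen presentation, 11 were tested, and the interferon-induced factor Irf1 alone passed, for age, where 10.3% of all genes did, so 1 of 11 is near the background. Irf1 was lower in Middle-aged than in Mature, with a logFC of −0.41 ± 0.13 (SE, FDR = 0.0449). It was 5.36 to 8.18 CPM in Mature (median 6.56) and 4.07 to 6.93 CPM in Middle-aged (median 4.61), and the groups overlapped. Its FDR was 0.0521 to 0.0928 without any 1 of Mature replicates 1, 2, 3, 5 and 6, Middle-aged replicates 1, 3, 4, 5 and 6 and ALL replicates 1 and 3, 0.113 with scaling by library size alone and 0.0665 with no filter on low counts. Its logFC was −0.23 (FDR = 0.597) among libraries with a mitochondrial share below 19%. Ifng, the interferon itself, had no count in any library, which allows up to 3 counts per library. The 15 leukocyte markers had a sum of 19.8 to 47.8 CPM in Mature mice, 28.4 to 63.7 CPM in Middle-aged mice, and 34.7, 41.5, 22.3 and 13.6 CPM in ALL replicates 1 to 4, so ALL replicate 2 was the highest of its group here too. Mature replicate 2 had the highest Psmb8 and leukocyte sum (47.8 CPM) of its group, and Middle-aged replicate 3 the lowest of both (28.4 CPM). Other mice went the other way. Mature replicate 6, which had the lowest Psmb8 of its group at 2.29 CPM, had a leukocyte sum of 45.1 CPM, the second highest of the Mature mice. Mature replicates 3 and 7 were above their group's mean for Psmb8, with leukocyte sums of 27.7 and 23.9 CPM, below the Mature median of 33.6 CPM. The lymphocyte markers Cd3e, Cd3g, Cd8a, Ms4a1 and Nkg7 had group medians of at most 0.107 CPM and reached 28 counts at most. None of the 10 leukocyte markers tested passed in any comparison by edgeR (2, 3 and 1 had an unadjusted p under 0.05 for age, for diet and for both together, and DESeq2 called 1, Itgax, in ALL against Mature), and their part in the levels of Psmb8 to Psmb10 was not tested.

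The genes whose level was most like that of Psmb8 from mouse to mouse, after group means were subtracted, were Srgn, Depdc7, Bst2, Uba7 and Gm33350. Their Pearson r with Psmb8 over 17 mice was 0.867, 0.860, 0.857, 0.856 and 0.844, and Spearman's rho was 0.904, 0.848, 0.784, 0.804 and 0.804. Without Middle-aged replicate 3 and ALL replicate 2, the mice farthest from the median of Psmb8, r was 0.922, 0.842, 0.815, 0.791 and 0.769. These are the highest of all genes tested and share libraries and depth, so they are a description and carry no p. Bst2 is an interferon-inducible membrane protein and Uba7 activates the ubiquitin-like protein Isg15. Srgn, the gene most like Psmb8, is not described here, nor are Depdc7 and Gm33350. A link of these genes to interferon or to cell content was not tested.

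In some mice nearly all core subunits lay on the same side of their group mean. In Mature replicate 1, 0 of 31 core subunits lay above the mean of the Mature mice, whereas in Mature replicate 5 all 31 did. The other Mature replicates 2, 3, 4, 6 and 7 had 3, 4, 29, 15 and 25 of 31 above the mean. The median deviation was −0.20 on the log2 scale in Mature replicate 1 and 0.18 in Mature replicate 5. In ALL replicates 1 to 4, 4, 13, 16 and 30 of 31 lay above the mean of their group, with median deviations of −0.06, −0.03, 0.0055 and 0.08. In Middle-aged, the numbers were 22, 15, 11, 3, 27 and 14, and the median deviations lay between −0.06 and 0.11. Core subunits did not move as a single set in every mouse. In Middle-aged replicate 2 and ALL replicate 2, most alpha and beta subunits lay above the mean and most cap subunits below it. In Middle-aged replicate 6 the reverse was seen. Over all genes tested, 49.2% to 54.0% were above the group mean in any mouse.

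The Mature mice with few core subunits above the mean, replicates 1, 2 and 3, had mitochondrial shares of 20.2%, 22.4% and 20.8%. Those with most above it, replicates 4, 5 and 7, had shares of 15.6%, 15.6% and 17.9%. With mitochondrially encoded genes left out, Mature replicates 1, 2 and 3 had 0, 2 and 4 of 31 above the mean and replicates 4, 5 and 7 had 30, 31 and 25. With scaling by library size alone they had 0, 0 and 2, and 29, 31 and 25. Middle-aged replicate 1, with the highest share at 23.5%, had 22 of 31 above the mean, and its number was 8 with scaling by library size alone. In Middle-aged replicate 2 that scaling took the number from 15 to 28. The summed level of the 6 muscle fibre markers was 111777, 112493 and 117017 CPM in Mature replicates 1, 2 and 3, and 138514, 137070, 125102 and 127528 CPM in replicates 4 to 7. In ALL replicates 1 to 4 it was 111918, 113967, 128460 and 137069 CPM, the same order as the numbers of core subunits above the mean. In Middle-aged replicates 1 to 6 it was 104010, 106293, 121499, 105302, 108768 and 136684 CPM, which is another order than that of the core subunits. The part of the mitochondrial share and of the fibre markers in this pattern was not tested.

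The inducible subunits did not take part in the same order. Their median deviation was 0.16 in Mature replicate 1, where every core subunit was low, and −0.24 in ALL replicate 4, where 30 of 31 were high. In ALL replicate 2 it was 0.52, with 13 of 31 core subunits above the mean. The spread between mice of a group, as an SD on the log2 scale, was 0.06 to 0.21 for the core subunits (median 0.11), close to the median of 0.13 over genes of the same level range. The SD was 0.34 for Psmb8, 0.32 for Psmb9 and 0.20 for Psmb10. Over all genes tested the median SD was 0.22, so Psmb10 lay below it and Psmb8 and Psmb9 above it. No background was taken at the low level of these genes, where counting noise adds to the SD. The smallest SD of any member was that of Psme3, at 0.06.

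**Figure D5:**
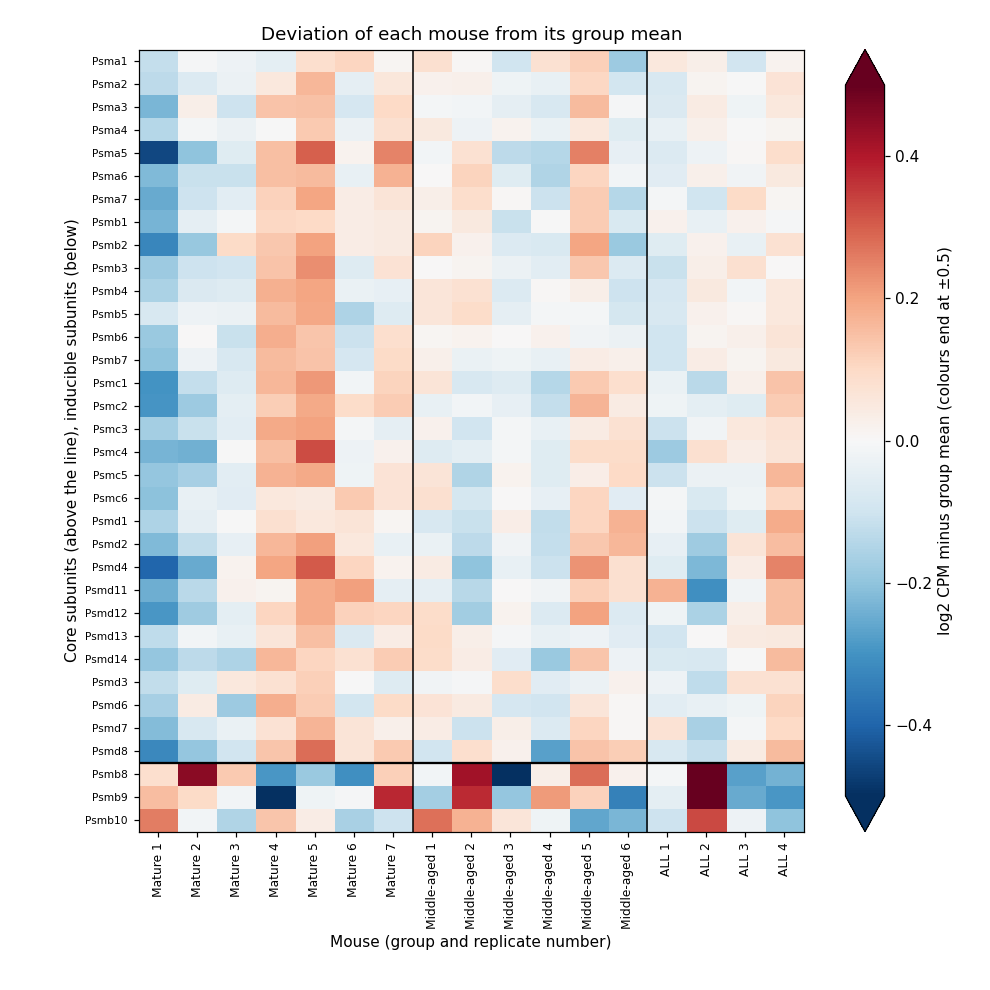
Log2 CPM of each mouse minus the mean of its group for the 31 core subunits (above the line) and the 3 inducible subunits (below). Blue is below and red above the group mean, and colours end at 0.5. Mature replicate 1 is blue in all 31 core rows and Mature replicate 5 red in all 31, whereas the inducible rows follow another order.

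Of the 14 genes of ubiquitin supply and delivery described here, 0 passed in any comparison by edgeR or by DESeq2, and 2, 0 and 1 had an unadjusted p under 0.05 for age, for diet and for both together. Their median logFC was −0.04 for age, −0.0014 for diet and −0.0067 for both together.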

How the data were processed

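The deposited counts are whole numbers of reads per gene that the authors made and did not normalise. STAR and StringTie are named in the paper. The submitters' processing notes instead hold featureCounts and HISAT2 2.1.0, beside Trimmomatic 0.38, FastQC 0.11.7 and the build mm10, and it is not settled here which program made the counts. The deposited TPM values were made by the authors and are used only to compare levels between genes. Another 18 columns of per-sample values that match no sample used here (10 of counts, 8 of TPM) and 17 FPKM columns were not used. The library kit marks strand, but strand use in counting is not given in the sources used here. In the GENCODE M21 annotation 24 of the 50 members overlap another gene, 19 of them one on the opposite strand, among them Psmb8, Psmb9 and Psmb10, and reads of such pairs may not be told apart. Psmg4 overlaps none.

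Tests used edgeR 4.0.16 in R 4.3.3. Of 45777 genes, filterByExpr kept 16731, libraries were scaled by TMM, and all 17 libraries entered a single quasi-likelihood fit with group means only. Values in CPM are TMM-scaled, and log2 CPM used a prior count of 2. P-values were adjusted over all genes tested by Benjamini-Hochberg (FDR under 0.05). P-values set a difference between group means against the spread between individual mice. The fit estimates that spread partly from other genes. Intervals are at 95%. The fit was run on simulated counts with known fold changes and the same dispersion for every gene. That was done for the comparisons of age and of diet, and not for ALL against Mature. The members, lists and tests were chosen with earlier results of these data known. Values are given for members past the threshold, for Psmb5 to Psmb10, Psme1 and Psme2, and for the highest and lowest logFC per comparison among members with an average logCPM over 0. Psmd8, Psma5, the other Psmg genes and the abundant or scarce members were described after their values were seen. Genes of other lists are given when past the threshold, and Nfe2l1, Ifng, Pomp, Zfand5, Itgax, Lyz2 and Nfe2l2 were added. Zfand5, Itgax, Lyz2, Nfe2l2 and the logFC of Nfe2l1 were added with values known. A gene of the ubiquitin list is not reported here. Alternatives were DESeq2 1.42.0, library size alone, no filter, a likelihood ratio test, a fit to only the 2 groups compared, a replicate block, the mitochondrial share as a covariate, mitochondrially encoded genes left out, libraries split at a mitochondrial share of 19%, and each mouse left out. The core subunits' median, and the count of core subunits per mouse under other scalings, were added after seeing the data. Plots used matplotlib 3.10.9 (Python 3.11.15).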

Additional observations from a re-analysis of the deposited data

Results flagged for a closer look

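In 2 of the 144 sets of values formed by the 48 genes tested and the 3 groups, a single mouse lay apart from its group by Dixon's criterion, which chance meets in about 1 set in 20. Psma3, an alpha ring subunit, was 147.4 CPM in Middle-aged replicate 5, against 125.0 to 131.6 CPM in the other Middle-aged mice. That mouse had 27 of 31 core subunits above the mean of its group. Psme3, the nuclear activator, was 55.34 CPM in Mature replicate 2, against 50.19 to 52.07 CPM in the other Mature mice.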

How the results depend on the processing

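The counts of 0 members between Middle-aged and Mature, between ALL and Middle-aged, and lower in ALL than in Mature stayed at 0 under every alternative run. The 1 member higher in ALL than in Mature, Psmg4, became 0 with library size alone, with no filter on low counts, with the replicate block and among libraries with a mitochondrial share of 19% or more, where ALL has 1 mouse whose spread is taken from the other groups. With 1 mouse left out the count was 0 to 1. Over its 27 alternatives Psmg4 was past the threshold in 18, with a logFC of 0.04 to 0.66 and an FDR of 0.0134 to 0.971. With the replicate block its logFC was 0.53 (FDR = 0.0511). The replicate numbers are those of the sample titles, where the mouse codes beside them often differ between groups. No label used here pairs mice of different groups. Mice of different groups with the same replicate number had correlated deviations over 0.1 in 5 of 14 pairs (−0.183 to 0.235, median 0.063). Mice of different groups and numbers did so in 9 of 80 pairs (−0.185 to 0.140, median −0.0062). The median was thus higher for same-numbered mice, and the cause was not tested. The main fit did not take the numbers as pairing. No other count of members changed with the block.

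Over all genes, the number called between Middle-aged and Mature went from 1721 to 1049 among libraries with a mitochondrial share of 19% or more and to 456 among those below. Between ALL and Middle-aged it went from 0 to 2 with DESeq2, 4 with the likelihood ratio test, 2 and 1 in the same library sets, and 0 to 1 with 1 mouse left out (1 without ALL replicate 3). Between ALL and Mature it went from 1087 to 1696 with DESeq2, 615 with the replicate block, 45 and 401 in the library sets, and 430 to 1096 with 1 mouse left out, the lowest without ALL replicate 3 (650 when ALL replicate 4 was dropped, 707 when Mature replicate 6 was).

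Signs turned for several members with no call, and the cause was not tested. Among libraries with a mitochondrial share below 19%, the logFC was 0.19 for Psmb8 in Middle-aged against Mature, −0.091 for Psmb8 in ALL against Middle-aged and 0.0045 for Psmg3 in ALL against Mature. Among the others it was −0.061 for Psmc3ip and 0.067 for Psmd11 in ALL against Middle-aged, and 0.087 for Psmd11 in ALL against Mature. With mitochondrial genes left out Psmg3 in ALL against Mature was 0.00032. With 1 mouse left out, Psmb8 in ALL against Middle-aged was −0.11 to 0.19 (the lowest without ALL replicate 2) and Psmg3 in ALL against Mature was −0.068 to 0.027. For Psmb5 to Psmb7 the alternatives gave logFC values of −0.09 to 0.14 over 3 comparisons, 30 of 243 of the sign opposite to the reported value and 0 past the threshold. For Psmb8 to Psmb10 they gave −0.67 to 0.30 (19 of 243 opposite, 0 past), and for Psme1 and Psme2 −0.14 to 0.22 (11 of 162 opposite, 0 past). Depth limits Psmb8, Psmb9, Psmg4 and Psmc3ip, at 52 to 271 counts per library, more than the core subunits.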
